A study of Homo sapiens with 32 samples.

Results

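Mitochondrial ribosomal proteins build the ribosome of the mitochondrion and are encoded in the nucleus. The members were all genes whose symbol starts with MRPL or MRPS followed by a digit, which gave 77 of the 18829 named genes in the count tables. Where several transcript rows of a gene had been counted, the one with the largest read sum was used. Each of the 77 had at least 1 read, 52 had a single matched row and 25 had several. By the place of the protein in the ribosome, 51 members belong to the large subunit and 26 to the small one, because MRPS18A and MRPS30 carry a small-subunit name but sit in the large subunit. For the comparisons below 46 members were listed with a relative in bacteria and 31, MRPS18B among them, as particular to mitochondria.

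The mitochondrial ribosome descends from a bacterial one and makes the few proteins still encoded by mitochondrial DNA, which are membrane subunits of the respiratory chain and of ATP synthase. Its proteins are translated in the cytosol, imported and assembled on mitochondrial rRNA with the help of GTPases, helicases and methyltransferases. Their promoters often lack a TATA box and hold sites for ETS factors, NRF1 and YY1, as those of many nuclear genes for mitochondria do.

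The study measured RNA in HCT116 cells, an established human colorectal carcinoma line, by SLAM-seq. In this assay the uridine analogue 4-thiouridine (s4U) is fed to cells for a short time, and RNA made in that time carries T-to-C conversions in the reads. Loss of the RNA-binding protein IGF2BP3 was the question, with and without stress of the endoplasmic reticulum (ER). The 32 libraries formed 8 groups of 4 wells. Parental cells carried OsTIR1, a plant receptor under a doxycycline-inducible promoter that, with auxin, sends degron-tagged proteins to the proteasome. Tagged cells carried in addition the mini auxin-inducible degron (mAID) on both alleles of IGF2BP3, and the labels do not state whether they were 1 clone. Both lines were either left unstressed or stressed with 5 µg/mL tunicamycin for 5 h, and either given vehicle (DMSO) or 500 µM auxin (IAA) for 9 h, in all 8 combinations. Doxycycline (200 ng/mL, for 24 h) and s4U (250 µM, for 2 h) were in all wells until collection. The replicates are wells of 1 line, and the p-values therefore rest on the spread from well to well.

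The depth was 2.55 M to 6.98 M reads in named genes in 31 libraries, of which 10.3% to 13.5% carried conversions ("labelled reads"). The remaining library, parental cells with stress and auxin, replicate 1, stood apart with 0.987 M reads, 8.88% of them labelled, and 15.1 covered T positions per read against 20.3 to 24.1 in the others. In it, 40 of 76 tested members (52.6%) lay more than 2-fold above or below all 3 of their group mates, as did 42.2% of all genes tested, and counts are therefore given with and without it. Of the markers fixed for the cell type, EPCAM, KRT8, KRT18 and KRT19 were read in all libraries and VIL1 was at most 0.303 CPM. Defining genes of fibroblasts, blood and endothelium (DCN, PDGFRB, HBB, PECAM1, VWF, CDH5) had a median of 0 CPM, while COL1A1 was read at 18.4 to 59.7 CPM and COL1A2, PTPRC and CD3E had no reads. IGF2BP3 mRNA was at 129 to 235 CPM in every library, a reading that does not check removal of the protein. HSPA5, the ER chaperone induced by unfolded proteins, had 786 ± 90.1 CPM (SD, n = 4) in unstressed and 4347 ± 273 CPM in stressed vehicle-treated parental cells, and 687 ± 15.2 and 4066 ± 546 CPM in tagged cells.

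The genes on which the results below turn were MRPL44, MRPS17 and MRPL51, which had fewer reads under tunicamycin, and MRPS30, which had fewer reads with auxin. MRPL44 (transcript NM_022915.3, gene at chr2:223950854-223967714) encodes a protein of the large subunit with a fold of the ribonuclease III family. MRPS17 (NM_015969.2, chr7:55951877-55956500) encodes a small-subunit protein with a bacterial relative that binds rRNA, MRPL51 (NM_016497.3, chr12:6491886-6493262) a mitochondria-specific protein of the large subunit, and MRPS30 (NM_016640.3, chr5:44808947-44815514) another one. Their promoters are printed because these members changed or stood low in the same direction in several comparisons. Each sequence runs from 250 bases before to 50 bases after the transcript start taken from RefSeq, build GRCh38.p14 (for MRPL44 this lies inside the gene interval above), written 5′ to 3′ on the gene's strand, with capitals for matches to an ETS motif (CCGGAAG) or a YY1 motif (AAGATGGC) on either strand. The intervals are chr2:223957213-223957512 on the plus strand for MRPL44, chr7:55951627-55951926 on the plus strand for MRPS17, chr12:6493213-6493512 on the minus strand for MRPL51, and chr5:44808697-44808996 on the plus strand for MRPS30.
MRPL44: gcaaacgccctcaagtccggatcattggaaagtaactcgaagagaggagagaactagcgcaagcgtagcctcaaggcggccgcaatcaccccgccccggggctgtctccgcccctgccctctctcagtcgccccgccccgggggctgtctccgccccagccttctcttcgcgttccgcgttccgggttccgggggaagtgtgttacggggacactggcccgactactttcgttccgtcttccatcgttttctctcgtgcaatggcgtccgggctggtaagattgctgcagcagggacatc
MRPS17: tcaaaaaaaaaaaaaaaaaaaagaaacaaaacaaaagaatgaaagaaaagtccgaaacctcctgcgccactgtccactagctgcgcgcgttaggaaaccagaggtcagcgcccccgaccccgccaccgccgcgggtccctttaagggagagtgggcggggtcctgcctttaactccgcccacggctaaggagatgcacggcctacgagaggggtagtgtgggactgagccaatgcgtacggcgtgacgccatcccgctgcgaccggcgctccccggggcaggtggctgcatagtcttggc
MRPL51: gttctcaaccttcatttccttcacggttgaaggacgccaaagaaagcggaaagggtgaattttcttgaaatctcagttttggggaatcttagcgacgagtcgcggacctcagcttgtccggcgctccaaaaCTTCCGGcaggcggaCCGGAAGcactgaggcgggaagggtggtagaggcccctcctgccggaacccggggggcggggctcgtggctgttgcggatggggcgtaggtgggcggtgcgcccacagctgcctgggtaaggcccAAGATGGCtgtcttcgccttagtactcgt
MRPS30: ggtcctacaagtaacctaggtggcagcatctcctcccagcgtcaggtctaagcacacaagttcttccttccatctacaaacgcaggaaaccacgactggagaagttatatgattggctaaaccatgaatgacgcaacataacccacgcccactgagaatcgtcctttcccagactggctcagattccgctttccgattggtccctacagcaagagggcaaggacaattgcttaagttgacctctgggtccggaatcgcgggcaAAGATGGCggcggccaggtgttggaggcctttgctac

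The MRPL51 window held 2 ETS matches and 1 YY1 match, and that of MRPS30 held 1 YY1 match just after the start. Neither the MRPL44 nor the MRPS17 window held these letters, which says nothing about the factors themselves. RefSeq promoters were found for 69 members. Of these, 29 (42.0%) held the ETS letters against 20.6% of the 9237 promoters of genes tested for total reads, and 20 (29.0%) held the YY1 letters against 5.82%. The NRF1 palindrome (GCGCA followed by its reverse complement) was in 1 member (1.45%) and in 2.44% of the tested genes. The letters TGATGCAA, a C/EBP-ATF composite element known from genes of the stress response, were in 0 of the 69 and in 0.498% of the tested genes. Matches were sought on both strands. The ETS letters end and the YY1 letters begin with AAG, so 1 stretch could count for both. In the members' windows no ETS match overlapped a YY1 match. GC content had a median of 60.3% in the members' windows and 65.7% in the tested genes' windows.

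Total reads as counts per 1e6 reads in named genes (CPM, on TMM-scaled library sizes) differed widely between members. MRPS18B had the most over all 32 libraries, with 509, 606, 461 and 535 CPM in the 4 libraries of unstressed vehicle-treated parental cells. This small-subunit protein is 1 of several relatives of a single bacterial protein, although it was listed here among the members particular to mitochondria. MRPL51 followed with 495, 427, 521 and 531 CPM, and MRPS21, a small-subunit protein with a bacterial relative, with 394, 439.96, 402 and 428 CPM. The fewest over all 32 libraries among those tested were those of MRPL39, MRPS31 and MRPL2. In the same 4 libraries MRPL39 had 0.953, 0.297, 1.18 and 0.486 CPM, MRPS31 3.81, 1.78, 8.27 and 2.92 CPM and MRPL2, a core protein of the large subunit, 10.2, 11.6, 9.21 and 6.56 CPM. Reads of 3′-end libraries come from the last part of a transcript, and the counted region had a median of 323 bases over the tested members against 1112 over all tested genes. Per kilobase of counted region, MRPS15 was highest with 6842 CPM per kb, then MRPL21 with 4988 and MRPL51 with 3476, on regions of 27, 53 and 121 bases. MRPL19 was lowest with 9.07 CPM per kb on 6923 bases. In 3′-end libraries a transcript gives reads near its end whatever its length, so values per kb do not count molecules. MRPL23 had 0.195 CPM on average and was not tested, and 32 of the 77 genes overlap another gene, so that reads of these could have been shared if counting did not use the strand, which is not given in the sources used here.

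**Figure D1:**
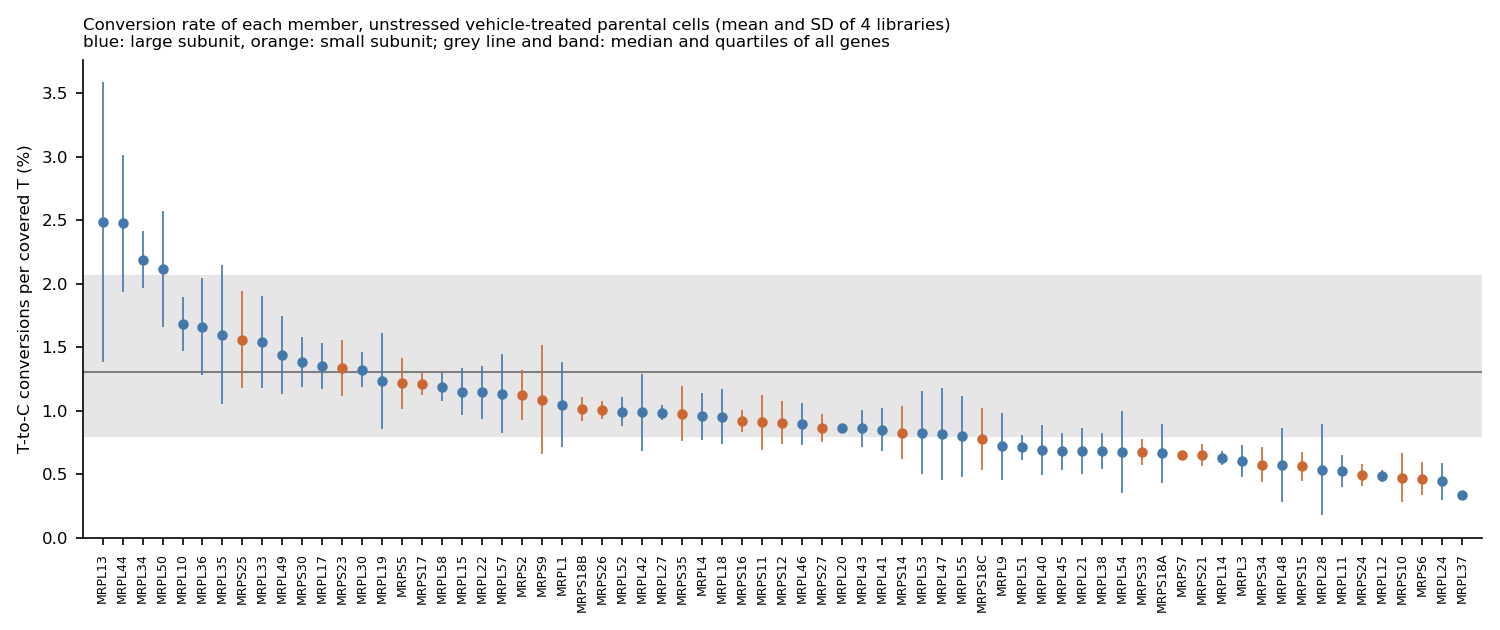
Share of covered T positions read as C, in percent, for the 69 members with at least 1000 covered T positions in each of the 4 libraries of unstressed vehicle-treated parental cells, ordered by rate. Points are means and bars SD of 4 libraries, blue for the large and orange for the small subunit; the grey line and band are the median (1.31%) and quartiles (0.801% to 2.06%) of all genes. Most points lie under the grey line, and MRPL13, MRPL44 and MRPL34 stand above it.

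The conversion rate, the percentage of covered T positions read as C, says how much of a gene's RNA was made during the 2 h of s4U. In unstressed vehicle-treated parental cells the median over 69 members was 0.908% (quartiles 0.676% to 1.19%), against 1.31% over 7227 genes, 0.397% over the cytosolic ribosomal proteins and 0.465% over nuclear subunits of oxidative phosphorylation. Members thus lay between these groups of stable mRNAs and the typical gene, as the plot of conversion rates shows. Large-subunit members had a median of 0.926% and small-subunit members of 0.908%. Above the median of all genes were 14 of the 69, none of them among the top 10% of all genes, and 6 were among the lowest 10%. The highest mean rates belonged to MRPL13 (3.29, 3.14, 0.891 and 2.63% in the 4 libraries), MRPL44 (1.79, 2.57, 2.45 and 3.09%) and MRPL34 (2.10, 2.53, 2.05 and 2.09%), with means and SD of 2.49% ± 1.102, 2.47% ± 0.537 and 2.19% ± 0.224. The spread of MRPL13 covers the values of the other two. MRPL37, a mitochondria-specific protein, was lowest (0.311, 0.328, 0.348 and 0.381%), followed by MRPL24 (0.616, 0.386, 0.286 and 0.490%) and MRPS6 (0.278, 0.504, 0.560 and 0.524%), and all libraries of these 3 lay below all libraries of the 3 highest. In tagged cells MRPL44 had 2.44%, MRPL34 1.93%, MRPL13 1.41% and MRPL37 0.588%. The order of the members was similar between lines, with a Spearman coefficient of 0.872 over 69 members without stress and 0.904 over 72 members with it; members share their libraries and depth, so this is a description. With tunicamycin the median fell short of the unstressed one in both lines, at 0.558% in parental and 0.643% in tagged cells, and that of all genes likewise, at 0.881% and 0.955%.

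**Figure D2:**
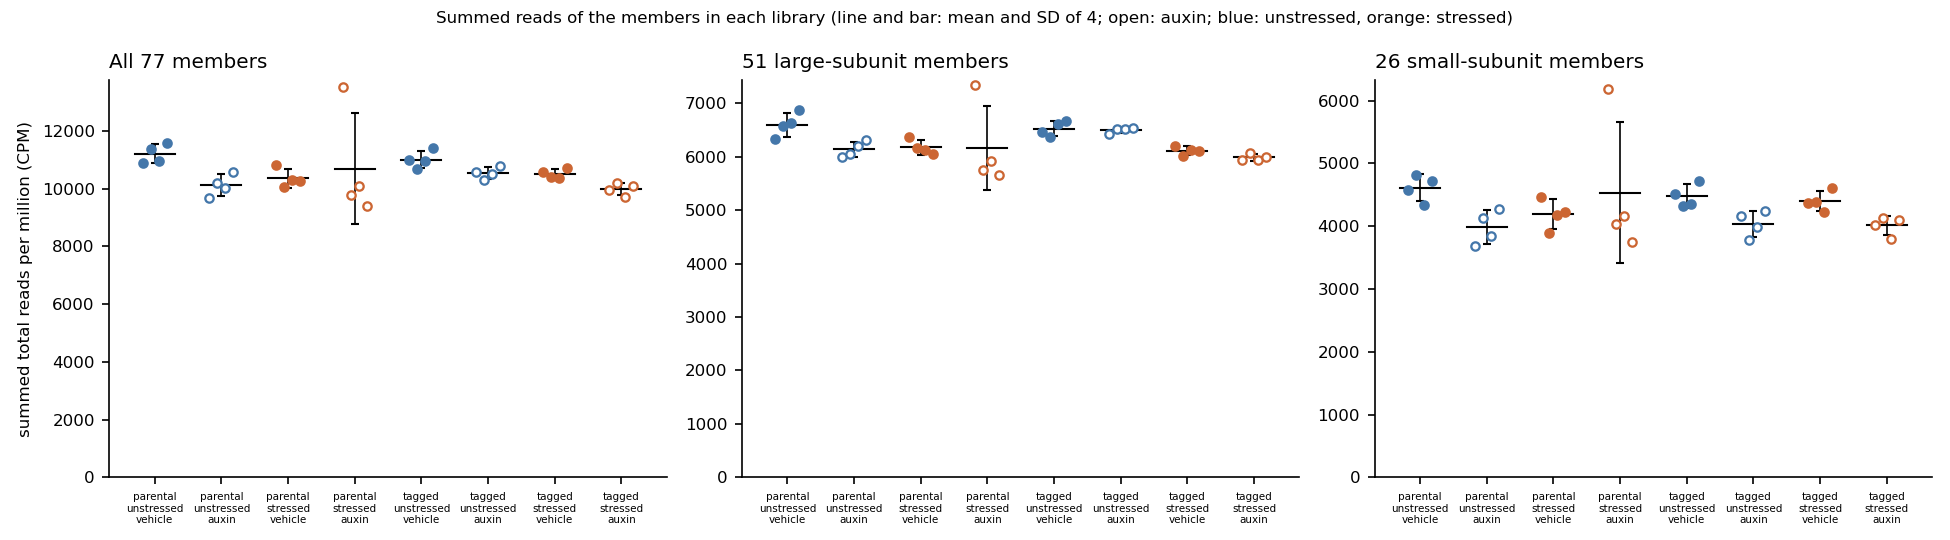
Summed total reads of the members in CPM for each of the 32 libraries by group, with large and small subunit apart. Lines and bars are the mean and SD of 4 libraries, open points had auxin, blue is unstressed and orange stressed; the single point at 13523 CPM in the stressed auxin-treated parental group is the library that stood apart.

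Summed over all members, unstressed vehicle-treated parental cells had 11210 ± 329 CPM (SD, n = 4; 10898 to 11582) and stressed ones 10363 ± 332 CPM (10044 to 10830). The corresponding tagged cells had 11004 ± 288 CPM and 10508 ± 164 CPM. Without stress but with auxin the sums were 10117 ± 378 CPM in parental and 10538 ± 199 CPM in tagged cells. Stressed cells with auxin had 9996 ± 209 CPM in the tagged line, and in the parental line 13523 CPM in the library that stood apart and 9394 to 10079 CPM in its 3 mates. In vehicle-treated parental cells all stressed libraries lay below all unstressed ones, while the library that stood apart was above all other libraries. The labelled percentage of the members' reads was 10.6% ± 0.460 in unstressed and 8.72% ± 0.390 in stressed vehicle-treated parental cells, against 12.9% and 11.8% over all genes. In bulk RNA, fewer cells that express a gene and less of its RNA per cell cannot be told apart.

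Tunicamycin blocks N-linked glycosylation and so causes unfolded proteins to collect in the ER. Cells given it were compared with unstressed cells in 4 settings that use different libraries. In vehicle-treated parental cells 10 of 76 tested members passed edgeR's adjusted p of 0.05, which is 13.2% against 12.9% of all 11186 genes, 3 of them higher (background 7.65%) and 7 lower (5.26%). With auxin 6 members passed in parental cells against 10.5% of all genes, 4 higher (7.26%) and 2 lower (3.19%). In tagged cells 0 passed with vehicle (background 4.04% in all, 2.93% higher and 1.11% lower; 8 members at an unadjusted p under 0.05; 3 members by DESeq2) and 1, lower, with auxin (background 4.16%, of which 3.01% higher and 1.14% lower). Backgrounds here and below are shares of all genes called by edgeR's adjusted p. No such share is given for counts at an unadjusted p or by another test, so those counts are no result about the members. The 7 lower in vehicle-treated parental cells were 9.21% of the members, above the background, and the other shares were near or under it. Without the library that stood apart the counts were 40 (52.6% of the members, background 30.1%), 4 (9.23%), 4 (7.72%) and 4 (8.12%). The median log2 change over the members was -0.12, -0.07, -0.05 and -0.10 in the 4 comparisons, against -0.01, -0.00, -0.01 and -0.01 over all genes. By fitted sign, 19 members (25%) were lower in all 4, against 15.8% of all genes, and 2 (MRPL15 and MRPS27) were higher in all 4, against 15.4%.

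MRPL44 fell in both settings of the parental line and in auxin-treated tagged cells. In vehicle-treated parental cells it had 51.2, 48.4, 51.7 and 46.2 CPM unstressed and 33.9, 33.9, 29.3 and 31.8 CPM stressed. With auxin, parental cells had 50.6, 48.1, 59.3 and 53.9 CPM unstressed and 12.7, 27.95, 32.7 and 37.98 CPM stressed, the lowest of these being the library that stood apart. All stressed libraries lay below all unstressed ones in both settings. In tagged cells with vehicle there were 45.1, 50.3, 43.01 and 43.02 CPM unstressed against 35.5, 33.3, 31.5 and 29.1 CPM stressed, and with auxin 52.6, 64.1, 55.2 and 53.3 against 34.3, 45.4, 37.6 and 35.6 CPM. Here too the groups did not overlap. The log2 change was -0.61 ± 0.15 (edgeR adjusted p = 0.00503) and -0.83 ± 0.15 (edgeR adjusted p = 0.000355) in parental cells, and -0.49 ± 0.15 (edgeR adjusted p = 0.0648) and -0.56 ± 0.15 (edgeR adjusted p = 0.0201) in tagged cells, with vehicle and with auxin. Fitted without the library that stood apart, all 4 passed, at -0.61 (edgeR adjusted p = 8.72e-05), -0.68 (edgeR adjusted p = 0.00012), -0.48 (edgeR adjusted p = 0.00517) and -0.57 (edgeR adjusted p = 0.000465).

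**Figure D3:**
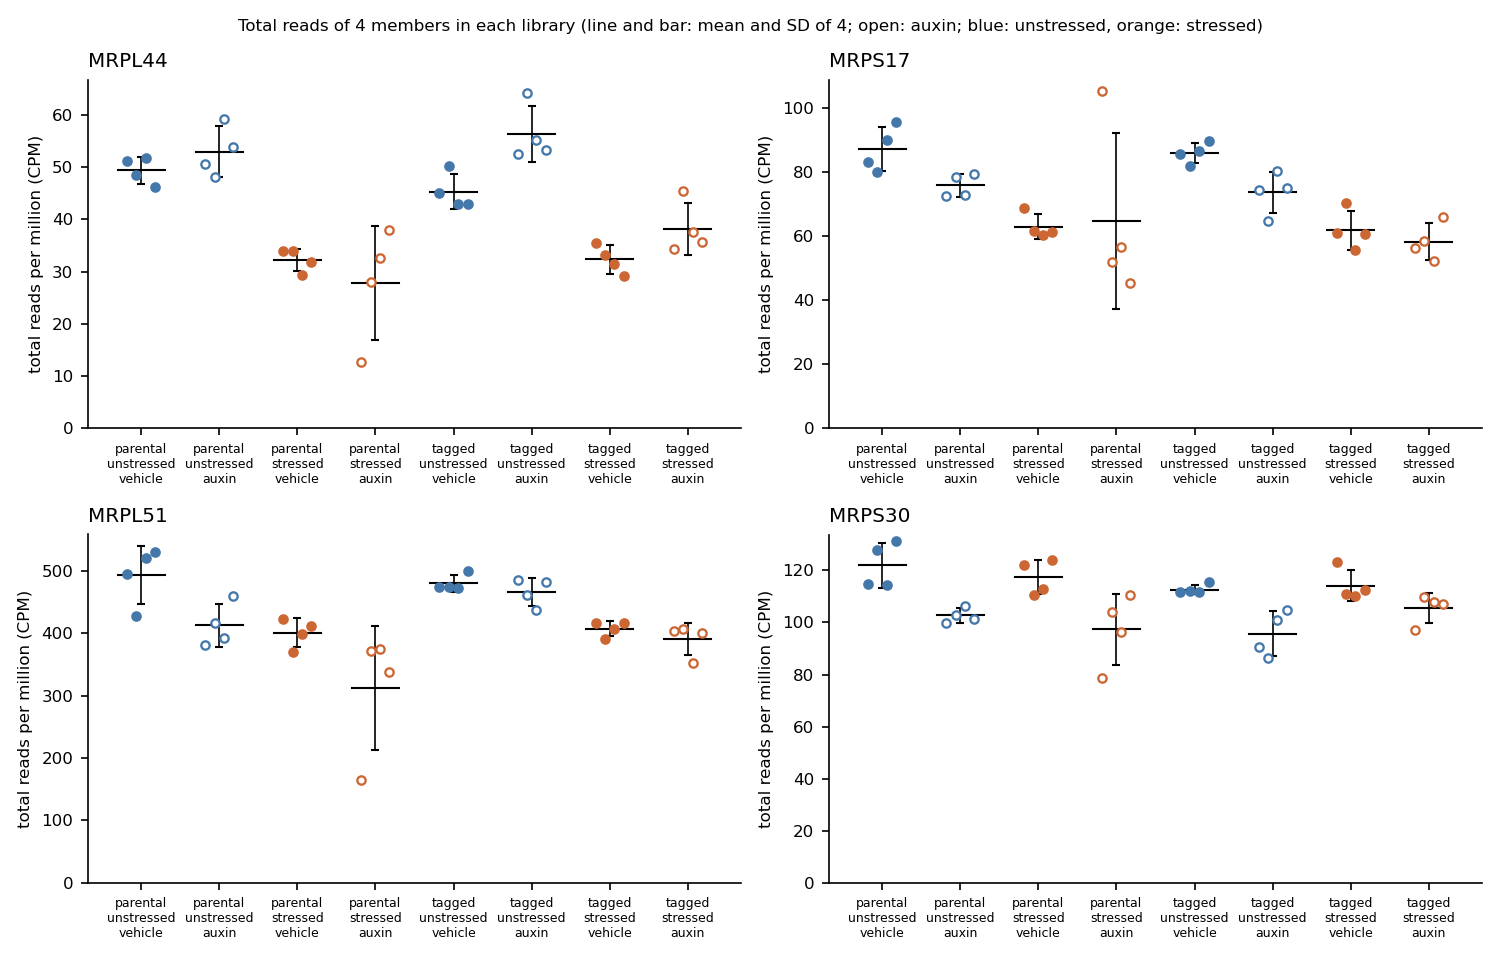
Total reads in CPM of MRPL44, MRPS17, MRPL51 and MRPS30 in each of the 32 libraries by group. Lines and bars are the mean and SD of 4 libraries, open points had auxin, blue is unstressed and orange stressed; MRPL44 and MRPL51 have every stressed library below every unstressed one of the same line and auxin treatment, and MRPS30 every auxin library below every vehicle one of the same line and stress.

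MRPS17 had 83.3, 80.2, 90.02 and 95.7 CPM in unstressed and 68.7, 61.8, 60.4 and 61.2 CPM in stressed vehicle-treated parental cells, without overlap, and fell by 0.47 on the log2 scale (edgeR adjusted p = 0.029). In the tagged line with vehicle the values were 85.6, 81.9, 86.7 and 89.7 against 60.9, 70.3, 55.7 and 60.6 CPM, with a change of -0.47 ± 0.15 (edgeR adjusted p = 0.0676). Auxin-treated parental cells had 72.6, 78.6, 72.97 and 79.4 CPM unstressed and 105, 51.96, 56.8 and 45.2 CPM stressed, and the library that stood apart lay above all others there. Auxin-treated tagged cells had 74.6, 64.9, 80.4 and 75.01 against 56.2, 58.6, 52.2 and 66.02 CPM, with 1 overlapping library. MRPL51, with 495, 427, 521 and 531 CPM without and 423, 369.7, 398 and 412 CPM with stress in vehicle-treated parental cells, did not overlap either, at a change of -0.30 ± 0.14 (edgeR adjusted p = 0.144). The same holds for tagged cells with vehicle, at 475, 474, 473 and 501 against 417, 391, 407 and 416 CPM, and with auxin, at 486, 461, 437 and 483 against 404, 407, 352 and 401 CPM. In auxin-treated parental cells MRPL51 had 381, 417, 393 and 459 CPM unstressed and 165, 371, 375 and 338 CPM stressed, again apart. Lower and without overlap in all 4 comparisons were thus MRPL44 and MRPL51, 2 of 76 members (2.63%) against 0.715% of all tested genes. Without the library that stood apart, MRPS17 passed in all 4 comparisons, and MRPL51 passed in 3, at -0.30 (edgeR adjusted p = 0.00239), -0.23 (edgeR adjusted p = 0.0448) and -0.26 (edgeR adjusted p = 0.0171).

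Averaged over the 4 stress comparisons, a contrast added after the data had been seen, 13 members passed, 1 higher and 12 lower, against 21.9% of all genes. For this and the other mean contrasts below, the share of all genes is given for both directions together. Splits of the members by direction in these contrasts are therefore no result about the members. Without the library that stood apart there were 24 (background 30.8%), and no other single library moved the count by over 1.5 times. The mean change was -0.62 ± 0.07 (edgeR adjusted p = 8.53e-08) for MRPL44, -0.40 ± 0.07 (edgeR adjusted p = 0.000114) for MRPS17 and -0.29 ± 0.07 (edgeR adjusted p = 0.00189) for MRPL51. Also lower were the small-subunit proteins MRPS6, MRPS34 and MRPS2 and the large-subunit proteins MRPL14, MRPL43, MRPL20, MRPL17, MRPL18 and MRPL36, by 0.16 to 0.37 on the log2 scale. MRPL58, a release factor built into the large subunit, was the single one that rose, by 0.14 (edgeR adjusted p = 0.0165). The value of MRPL43 depended on the transcript row, since with the longest counted region of the gene it was 0.52.

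Other members that passed in vehicle-treated parental cells moved both ways. MRPS6 had 112, 122, 106 and 96.7 CPM unstressed and 90.98, 79.98, 79.8 and 75.8 CPM stressed, a change of -0.42 ± 0.11 (edgeR adjusted p = 0.00939). MRPL14, which sits where the subunits meet, had 153, 156, 164 and 179.8 against 136, 129.6, 114 and 123 CPM and a change of -0.38 ± 0.10 (edgeR adjusted p = 0.0139). MRPL43, mitochondria-specific, had 242, 273, 234 and 271 against 218, 191, 199.6 and 193 CPM and a change of -0.35 ± 0.10 (edgeR adjusted p = 0.021). The decoding-site protein MRPS12 followed with 217, 220.4, 173 and 202 against 159, 129.97, 155 and 142 CPM and a change of -0.47 ± 0.14 (edgeR adjusted p = 0.0231). All 4 of these genes had no overlap between groups. They were picked by the test on the same libraries, and the share of all genes without overlap there is not given, so this adds no support. MRPL13, by contrast, was higher under stress, at 13.7, 11.6, 74.2 and 32.6 against 85.5, 171, 98.5 and 80.4 CPM, with a change of 1.70 ± 0.48 (edgeR adjusted p = 0.0195), and its unstressed libraries differed among themselves by more than those of any gene in the preceding sentences. MRPS22, a mitochondria-specific small-subunit protein, had 21.9, 24.4, 45.4 and 28.2 against 53.9, 67.3, 54.6 and 57.3 CPM, apart from each other, and a change of 0.95 ± 0.29 (edgeR adjusted p = 0.0291). The other 2 called were MRPS24, lower, and MRPL33, higher.

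With auxin, the parental calls rested in part on the library that stood apart, which is listed first among the stressed values here. MRPL58 had 113, 132, 128 and 133 CPM unstressed and 177, 137, 158 and 163 CPM stressed, without overlap, and rose by 0.32 ± 0.09 (edgeR adjusted p = 0.015). The small-subunit protein MRPS10 had 171, 217, 173 and 205 against 742, 242, 244 and 200.4 CPM, and MRPS18B had 399.7, 472, 430.2 and 505 against 1313, 509, 531 and 466 CPM. MRPL12, the protein of the flexible stalk that recruits translation factors, had 102, 117, 101 and 141 against 869, 119, 130.2 and 119.7 CPM. For these 3 the first stressed library was the highest of its group by far, while the other stressed libraries lay within or near the unstressed range. Their fitted changes were 0.86 (edgeR adjusted p = 0.0202), 0.63 (edgeR adjusted p = 0.0335) and 1.36 (edgeR adjusted p = 0.0228) with that library, and 0.26 (edgeR adjusted p = 0.206), 0.15 (edgeR adjusted p = 0.387) and 0.10 (edgeR adjusted p = 0.731) without it. MRPL18, a large-subunit protein, had 165, 131, 172 and 168 against 40.6, 115, 120.2 and 129.9 CPM and a change of -0.60 (edgeR adjusted p = 0.0206), which was -0.39 (edgeR adjusted p = 0.00785) without that library.

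Members described for their place in the ribosome included some that passed under stress, as given above for the decoding-site protein MRPS12 and for MRPL14, and others that did not. The stalk protein MRPL12 passed in auxin-treated parental cells only with the library that stood apart, as given above. MRPL3, MRPL4 and MRPL16, which lie near the peptidyl transferase centre and the exit tunnel, passed in none of the 4 comparisons. In vehicle-treated parental cells MRPL3 had 180.2, 138, 233 and 204 CPM unstressed and 231, 256, 218 and 211 CPM stressed, and the fitted changes of the 3 genes were 0.28 (edgeR adjusted p = 0.33), -0.27 (edgeR adjusted p = 0.131) and 1.45 (edgeR adjusted p = 0.0511). MRPL10 and MRPL11 form the base of the stalk. MRPL10 had 78.2, 76.9, 86.2 and 80.9 against 106, 111, 112 and 117 CPM (0.47, edgeR adjusted p = 0.123) and MRPL11 190.03, 182, 174 and 206 against 159, 159, 156 and 166 CPM (-0.23, edgeR adjusted p = 0.127). On the small subunit, MRPS7 had 244, 275, 247 and 249 against 222, 198, 214 and 223 CPM (-0.24, edgeR adjusted p = 0.0767) and MRPS5 61.97, 44.9, 97.6 and 74.8 against 86.6, 84.1, 82.2 and 85.2 CPM (0.27, edgeR adjusted p = 0.435). The pentatricopeptide-repeat protein MRPS27 had 310.2, 239, 294 and 280.1 against 352, 302, 357 and 337 CPM (0.26, edgeR adjusted p = 0.25). MRPS34, a mitochondria-specific protein, had a fitted change of -0.13 (edgeR adjusted p = 0.618) and MRPS18A of -0.44 (edgeR adjusted p = 0.293). None of these values passed the threshold in that comparison. Without the library that stood apart, many more members and a larger share of all genes passed in it, as given above. MRPL10 was among these members, at 0.47 (edgeR adjusted p = 0.00062). For the others of this paragraph the values of that fit are not given here, so not passing depends on that library.

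Labelled reads, which stand for RNA made in the last 2 h, were scaled by their own total, so that a change is relative to the typical gene. The median labelled read count in fact dropped under stress, and scaled by total reads instead the median of all genes would be -0.28 in vehicle-treated parental cells and -0.28 in the mean of the 4 comparisons. Of 72 members tested, 10 passed in vehicle-treated parental cells (background 17.2%; 4 higher, background 10.1%, and 6 lower, 7.08%), 4 with auxin (11.4%; 2 higher, 7.91%, and 2 lower, 3.45%), 3 in tagged cells with vehicle (9.38%; all higher, 6.88%) and 0 with auxin (background 9.78%; 13 at an unadjusted p under 0.05; 0 by DESeq2; smallest edgeR adjusted p = 0.055). Scaled by total reads they were 22 (2 higher, background 6.45%, and 20 lower, 19.9%), 17 (all lower, 14%), 5 (all lower, 7.82%) and 8 (all lower, 9.43%), so the directions are those relative to other genes.

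In labelled CPM, which counts labelled reads against all labelled reads of a library, MRPL4, which lines the exit tunnel, had 215, 303, 179 and 276 unstressed and 132, 105, 189.7 and 159 stressed in vehicle-treated parental cells. MRPS17 had 101, 86.3, 102 and 125 against 77.3, 47.9, 59.4 and 70.6 and MRPL43 221, 221, 157 and 224 against 136, 136, 137 and 146. These 3 fell, at -0.74 (edgeR adjusted p = 0.00282), -0.70 (edgeR adjusted p = 0.0329) and -0.56 (edgeR adjusted p = 0.0253). MRPS24, a small-subunit protein with a bacterial relative, had 101, 155, 131 and 119 against 69.1, 76.4, 84.5 and 91.7, and MRPL40, mitochondria-specific, 76.03, 75.2, 81.8 and 138 against 63.03, 44.9, 63.98 and 50.8. Both fell, at -0.65 (edgeR adjusted p = 0.0375) and -0.76 (edgeR adjusted p = 0.0392). MRPL33 had 33.5, 13.3, 39.2 and 24.3 against 44.7, 117, 63.98 and 52.02, MRPL13 31.3, 19.9, 69.9 and 70.9 against 79.3, 123, 89.1 and 97.8 and MRPL49 145, 84.1, 148 and 241 against 321, 273, 260.5 and 220.5. These large-subunit members rose relative to the typical gene, at 1.32 (edgeR adjusted p = 0.0029), 0.99 (edgeR adjusted p = 0.00878) and 0.78 (edgeR adjusted p = 0.0199).

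With auxin, parental cells had 194, 160.2, 176 and 199 labelled CPM of MRPL34 unstressed and 13.1, 107, 113 and 92.95 stressed, and 25.3, 8.01, 9.24 and 10.7 against 0, 2.74, 0 and 2.27 of MRPL28. Both large-subunit members fell, at -0.93 (edgeR adjusted p = 0.00336) and -2.92 (edgeR adjusted p = 0.0286). MRPL47 had 28.6, 21.4, 36.98 and 23.5 against 52.5, 52.1, 84.3 and 49.9 and MRPS18B 323, 315, 366 and 434 against 827, 425, 545 and 449. These rose relative to the typical gene, at 1.11 (edgeR adjusted p = 0.0136) and 0.55 (edgeR adjusted p = 0.0151). In vehicle-treated tagged cells the small-subunit members MRPS14, MRPS10 and MRPS27 did so. MRPS14 had 52.98, 22.9, 32.98 and 25.4 against 94.96, 47.3, 78.5 and 54.9 (1.03, edgeR adjusted p = 0.0305), MRPS10 103, 60.9, 91.9 and 125 against 172, 134, 126 and 182 (0.68, edgeR adjusted p = 0.0346) and MRPS27 230.5, 218, 236 and 205 against 303, 352, 283 and 289.5 (0.47, edgeR adjusted p = 0.0495).

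The labelled share sets a gene's labelled reads against its other reads in the same library. Relative to the typical gene, 4 members passed in vehicle-treated parental cells (1 higher, 3 lower; background 8.17%), 3 with auxin (2 higher, 1 lower; 8.05%), 4 in tagged cells with vehicle (all higher; 7.07%) and 2 with auxin (both higher; 7.12%). Backgrounds in this paragraph are for both directions together, so the splits by direction are no result about the members. The share of the typical gene itself dropped under stress. Not set against it, the median over all genes in the mean of the 4 stress comparisons was -0.36 in place of -0.06, and 47 members passed, 2 higher and 45 lower, against 54.5% of all genes, in place of 18, 11 higher and 7 lower (background 28.2%).

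MRPL49, a mitochondria-specific large-subunit protein, had the smallest p-value among the members whose labelled share rose relative to other genes in the mean contrast. Its labelled percentage was 21.2, 15.6, 15.6 and 22.7% unstressed and 22.9, 20.5, 18.1 and 18.5% stressed in vehicle-treated parental cells, which overlap. In tagged cells it was 19.1, 14.1, 18.5 and 16.1% unstressed and 20.5, 23.1, 20.5 and 22.2% stressed with vehicle, and 11.7, 15.5, 16.4 and 15.3% and 16.9, 18.2, 20.03 and 21.8% with auxin, without overlap in either. The log2 change of the share was 0.70 ± 0.18 (edgeR adjusted p = 0.00381) and 0.75 ± 0.17 (edgeR adjusted p = 0.000975) in tagged cells, 0.42 (edgeR adjusted p = 0.105) and 0.45 (edgeR adjusted p = 0.102) in parental cells with vehicle and auxin, and 0.58 ± 0.09 (edgeR adjusted p = 2.05e-08) on average. MRPS33, a small-subunit protein without a bacterial relative, had 7.49, 5.68, 4.74 and 7.23% unstressed and 10.9, 6.16, 11.2 and 8.45% stressed in vehicle-treated tagged cells, which overlap, and an average change of 0.72 ± 0.13 (edgeR adjusted p = 4.11e-06). Not set against the typical gene, these 2 still rose on average, by 0.28 (edgeR adjusted p = 0.00824) for MRPL49 and 0.42 (edgeR adjusted p = 0.00536) for MRPS33.

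MRPL34 went the other way. Its labelled percentage was 28.5, 28.96, 25.1 and 24.9% unstressed and 11.5, 14.5, 17.9 and 15.97% stressed in vehicle-treated parental cells, without overlap, a log2 change of -0.72 ± 0.20 (edgeR adjusted p = 0.00844) and on average -0.48 ± 0.10 (edgeR adjusted p = 0.000105). MRPL16 had 30.00, 50.00, 21.6 and 46.1% against 15.3, 10.7, 15.4 and 16.9%, and MRPS9, a small-subunit protein with a bacterial relative, 10.6, 21.4, 12.6 and 11.6% against 3.55, 7.01, 6.39 and 7.68%. Both fell in that comparison, to changes of -1.22 (edgeR adjusted p = 0.0104) and -0.91 (edgeR adjusted p = 0.0104). MRPS2 had 11.5, 10.2, 13.2 and 13.6% against 13.6, 13.9, 15.6 and 12.7%, which overlap. Relative to other genes this counted as a rise of 0.54 (edgeR adjusted p = 0.0124). On average its fitted change was 0.29 relative to the typical gene and -0.014 otherwise, and that of MRPS18B 0.24 and -0.071.

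For MRPL44, the member whose total reads changed by the smallest p-value, the labelled percentage was 26.7, 33.7, 32.9 and 40.00% unstressed and 29.7, 35.8, 35.5 and 38.6% stressed in vehicle-treated parental cells, and 29.2, 27.9, 34.6 and 31.7% and 29.1, 46.7, 30.8 and 41.5% in tagged cells. These ranges overlap in both lines. Its labelled reads had a fitted change of -0.29 (edgeR adjusted p = 0.364) in vehicle-treated parental cells and of -0.02 (edgeR adjusted p = 0.98) in tagged ones, and its share relative to the typical gene of 0.43 (edgeR adjusted p = 0.333) and 0.65 (edgeR adjusted p = 0.149). Averaged over the 4 comparisons the share was higher by 0.50 ± 0.13 (edgeR adjusted p = 0.0021), and by 0.20 (edgeR adjusted p = 0.217) when not set against the typical gene. MRPL51 had an average change of share of 0.36 ± 0.07 (edgeR adjusted p = 1.04e-05), and of 0.06 (edgeR adjusted p = 0.491) when not so set. In tagged cells its labelled percentage was 8.06, 6.82, 9.58 and 6.65% unstressed and 10.6, 8.76, 7.51 and 7.64% stressed, which overlap.

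Low labelled counts limit the other calls of the share. MRPL28, a large-subunit protein, had 10.3, 3.09, 4.95 and 4.72% labelled reads unstressed and 0, 1.03, 0 and 0.909% stressed in auxin-treated parental cells, where a listed 0 is a library with no labelled read of the gene. The fitted change was -3.37 ± 0.89 (edgeR adjusted p = 0.00652), a value that depends on the small number added before taking logs. MRPL47 had 6.67, 4.91, 8.30 and 4.98% against 8.51, 8.92, 12.7 and 7.61% in the same comparison, and MRPS33 7.11, 5.36, 9.78 and 2.78% against 9.76, 11.5, 6.43 and 10.6%. Their changes were 1.01 (edgeR adjusted p = 0.035) and 1.00 (edgeR adjusted p = 0.0116). In vehicle-treated tagged cells MRPS14, a small-subunit protein of the bacterial core, had 17.2, 6.92, 11.2 and 8.96% against 22.3, 12.7, 16.9 and 16.5% (1.01, edgeR adjusted p = 0.04), and in auxin-treated ones MRPL33 had 9.52, 7.61, 9.15 and 10.6% against 13.01, 21.4, 9.96 and 15.3% (1.00, edgeR adjusted p = 0.0171). The groups of MRPL28 did not overlap, and those of MRPL47, MRPS33, MRPS14 and MRPL33 did.

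**Figure D4:**
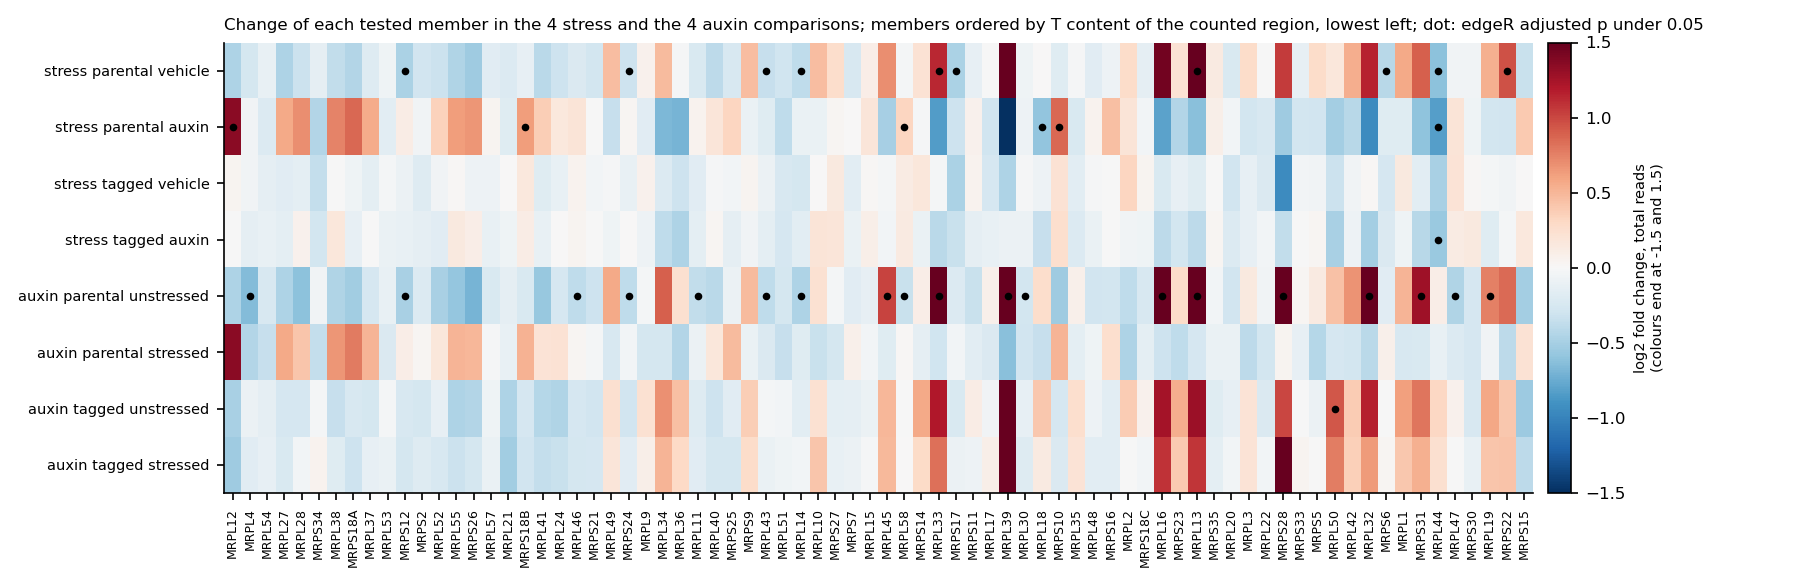
Log2 change of total reads of each of the 76 tested members (columns, ordered by T content of the counted region, lowest left) in the 4 stress and the 4 auxin comparisons (rows). Colour is the log2 change and a dot marks an edgeR adjusted p under 0.05; most dots of the auxin rows are in unstressed parental cells, with lower values at the left and higher ones at the right.

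Auxin was compared with vehicle in both lines, and parental cells, which have no degron, are the control for effects of auxin itself. Unstressed parental cells, not the tagged ones, had the most calls, as the plot of changes by comparison shows. In them 19 of 76 members passed, which is 25% against 7.16% of all genes, 9 of them higher (background 4.83%) and 10 lower (2.33%). The vehicle libraries of this comparison are also the baseline of the stress comparison in vehicle-treated parental cells, so calls in both are not independent. MRPL13 and MRPL33 were higher in both, and MRPL14, MRPL43, MRPS12 and MRPS24 lower. The share of all genes called in both is not given. Unstressed tagged cells had 1, higher (background 0.679%, of which 0.393% higher; 26 at an unadjusted p under 0.05; 5 by DESeq2). Stressed parental cells had 0 (background 0.0179%; 18 at an unadjusted p under 0.05; 2 by DESeq2), as did stressed tagged cells (background 0.0179%; 12; 1). The shares of all genes at an unadjusted p under 0.05 or by DESeq2 are not given. Member counts of these kinds, such as the 26, are therefore no result about the members. Without the library that stood apart the counts were 47 in unstressed parental cells (background 24.9%), 22 in unstressed tagged cells (15.9%), 0 in stressed parental cells and 5 in stressed tagged cells (2.51%). Without replicate 1 of the unstressed auxin-treated parental cells 1 passed, MRPL4, which was also among the 19 (background 0.897%). The median change over the members was -0.19, -0.13, -0.07 and -0.05 in unstressed parental, stressed parental, unstressed tagged and stressed tagged cells, against -0.01, 0.01, -0.00 and -0.00 over all genes. By fitted sign, 20 members (26.3%) were lower in all 4 comparisons, against 9.53% of all genes, and 1, MRPS28, was higher in all 4, against 9.17%.

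MRPL4 had the smallest p-value. In unstressed parental cells it had 242, 255, 238 and 263 CPM with vehicle and 155, 143, 157 and 181 CPM with auxin, without overlap, and fell by 0.65 on the log2 scale (edgeR adjusted p = 0.00612). In the other settings its fitted change was -0.44 (edgeR adjusted p = 0.183) in stressed parental, -0.09 (edgeR adjusted p = 0.715) in unstressed tagged and -0.17 (edgeR adjusted p = 0.54) in stressed tagged cells. MRPL14 had 153, 156, 164 and 179.8 against 112, 122, 119 and 123 CPM and MRPL58 156, 168, 152 and 161 against 113, 132, 128 and 133 CPM in unstressed parental cells. Both were apart, at changes of -0.46 (edgeR adjusted p = 0.0113) and -0.33 (edgeR adjusted p = 0.0212).

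The 6 members with the largest rises in unstressed parental cells had few reads with vehicle and differed among the libraries of a group. MRPL39 had 0.953, 0.297, 1.18 and 0.486 CPM with vehicle and 15.1, 5.08, 15.96 and 2.21 CPM with auxin in unstressed parental cells, a change of 3.67 ± 0.82 (edgeR adjusted p = 0.0115). MRPL13 had 13.7, 11.6, 74.2 and 32.6 against 168, 138, 181 and 77.5 CPM and MRPL33 21.6, 17.5, 38.98 and 18.5 against 99.5, 57.9, 114 and 37.6 CPM. Of these 3 large-subunit members, MRPL33 alone had libraries that overlapped between the groups. MRPS28 had 5.08, 4.16, 9.21 and 5.83 against 20.4, 16.6, 30.7 and 7.75 CPM, with 1 pair of libraries overlapping, and MRPL32 had 13.03, 11.9, 27.2 and 16.8 against 73.5, 35.6, 81.8 and 35.7 CPM, apart. The changes of these 4 were 2.07 (edgeR adjusted p = 0.0145), 1.67 (edgeR adjusted p = 0.0122), 1.62 (edgeR adjusted p = 0.0169) and 1.71 (edgeR adjusted p = 0.0187). MRPL16 had 9.53, 5.94, 44.9 and 18.5 against 82.5, 62.00, 109 and 55.9 CPM, apart as well, and a change of 1.94 (edgeR adjusted p = 0.0213). Within a group, the highest library of MRPL39 was 7.10 times the lowest (median over the 8 groups), and this ratio was 2.64 for MRPL13, 2.54 for MRPL16, 2.47 for MRPL32, 2.42 for MRPS28 and 2.27 for MRPL33.

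MRPS30 was lower with auxin in every comparison and without overlap. Parental cells had 115, 128, 114 and 131 CPM with vehicle and 99.98, 103, 106 and 102 CPM with auxin when unstressed. When stressed they had 122, 111, 113 and 124 CPM with vehicle and 78.7, 104, 96.4 and 110.5 CPM with auxin. Every auxin library was the lower one in both states. Unstressed tagged cells had 112, 112, 112 and 115 CPM with vehicle and 90.4, 86.4, 101 and 105 CPM with auxin, and stressed ones 123, 111, 110.3 and 112 CPM and 97.1, 109.95, 108 and 107 CPM. None of the 4 changes passed by itself, at -0.25 (edgeR adjusted p = 0.0896), -0.25 (edgeR adjusted p = 0.204), -0.24 (edgeR adjusted p = 0.157) and -0.11 (edgeR adjusted p = 0.594) in that order. Of all tested genes 0.0179% were lower in this way. In the mean of the 4 auxin comparisons, added after the data had been seen, MRPS30 changed by -0.21 ± 0.05 (edgeR adjusted p = 0.00331). MRPL50, a mitochondria-specific protein, was the single call in unstressed tagged cells, at 19.5, 22.2, 19.4 and 20.7 CPM with vehicle and 31.97, 48.2, 41.3 and 34.3 CPM with auxin, apart, and a change of 0.93 ± 0.21 (edgeR adjusted p = 0.0406). In unstressed parental cells its fitted change was 0.43 (edgeR adjusted p = 0.201).

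The 4 auxin comparisons together, by their mean, called 25 members, 12 higher and 13 lower, against 16.1% of all genes, and 58 without the library that stood apart (background 37.8%). Shares of all genes by direction are not given for this contrast. Lower were MRPL4 (-0.34, edgeR adjusted p = 0.00113), MRPL30, MRPS30, MRPL21, MRPS24, MRPS21, MRPL14, MRPL11, MRPL46, MRPL43, MRPS12, MRPS15 and MRPL41. Higher were MRPL39 (1.99, edgeR adjusted p = 0.00252), MRPS28 (1.06, edgeR adjusted p = 0.00133), MRPL33, MRPL50, MRPL13, MRPL16, MRPL19, MRPL32, MRPS31, MRPL34, MRPL45 and MRPS9. Where no member passed a comparison, the smallest p-values were those of MRPL12 (1.35, edgeR adjusted p = 0.183; without the library that stood apart 0.09, edgeR adjusted p = 0.977) and MRPL4 in stressed parental cells, and of MRPS28 and MRPL21 in stressed tagged cells. MRPS28 had 4.13, 4.12, 8.18 and 3.20 CPM with vehicle and 11.6, 9.61, 25.9 and 9.91 CPM with auxin there, and MRPL21 301, 275, 297 and 355 against 189, 230.1, 208 and 227 CPM. Both pairs were apart, at 1.57 (edgeR adjusted p = 0.224) and -0.52 (edgeR adjusted p = 0.224).

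**Figure D5:**
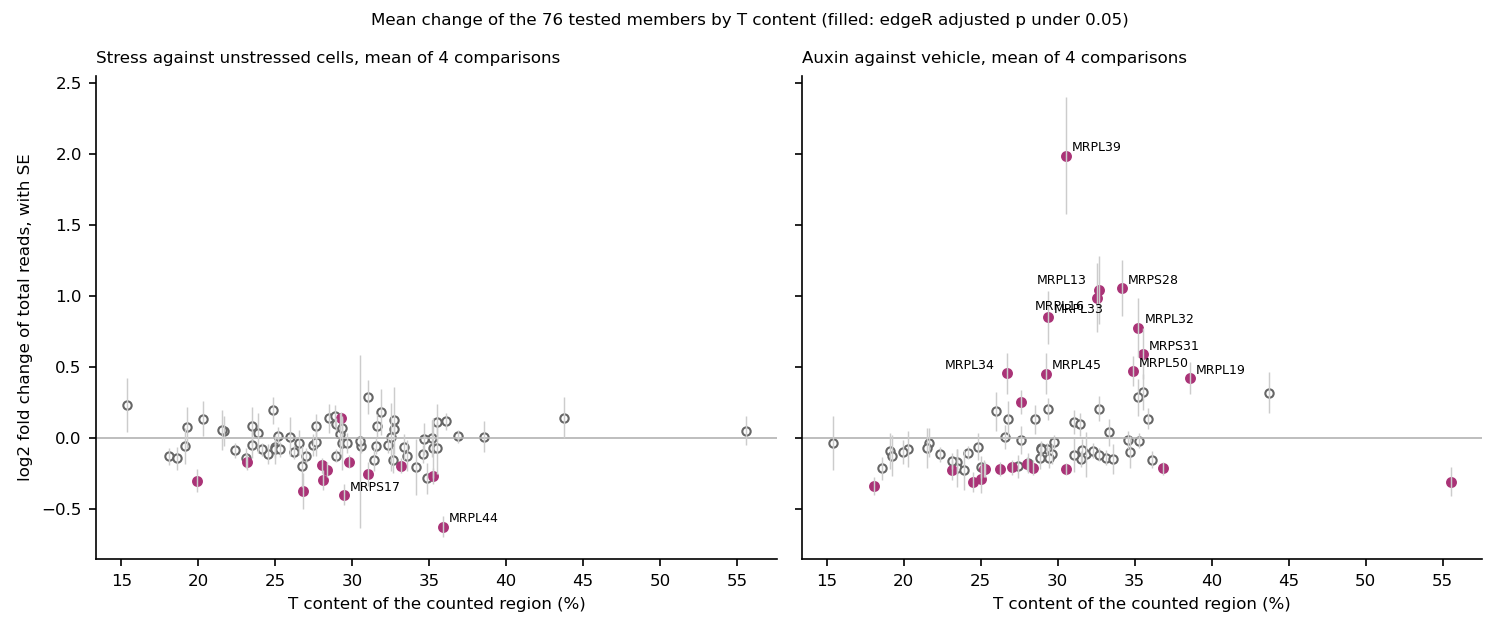
Mean log2 change of total reads over the 4 stress comparisons (left) and the 4 auxin comparisons (right) of the 76 tested members, against the T content of the counted region in percent. Points are fitted changes with their SE, filled where the edgeR adjusted p is under 0.05. In the auxin panel 11 of the 13 filled points below 0 have up to 31.5% T, and of the 12 above 0, 7 have more and 5 have less. Most tested members lie within that bound, namely the 26 with up to 26.7% T and the next 25.

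A property of the reads moved with the auxin changes, as the plot of changes against T content shows. In unstressed parental cells the 26 members with the lowest T content (up to 26.7%) had a median change of -0.34 with auxin and the 25 with the highest (over 31.5%) of 0.13. All genes in these ranges had -0.17 and 0.12. In unstressed tagged cells the members had -0.25 and 0.31 (all genes -0.17 and 0.14), in stressed tagged cells -0.21 and 0.21 (-0.12 and 0.10), and in stressed parental cells 0.06 and -0.24 (0.15 and -0.09). Stress gave -0.28 and 0.21 (-0.21 and 0.15) in vehicle-treated parental cells and the opposite order, 0.13 and -0.28 (0.13 and -0.08), in auxin-treated ones. In tagged cells it gave -0.07 and -0.05 (-0.03 and 0.00) with vehicle and -0.07 and -0.08 (0.02 and -0.03) with auxin. The same property separated replicates. The leading component of the differences within groups held 36.9% of their variance over 6346 genes, its loadings had a Spearman coefficient of 0.53 with T content over these genes and of 0.508 over 68 members, and its library scores had a Pearson coefficient of 0.863 with T positions per read within groups. With that component as a covariate, 6 members passed (background 3.5%) in place of 19 in unstressed parental cells. Library scores on the component differed between these groups, at -22.2, -32.6, 0.888 and -12.8 with vehicle and 10.3, 2.6, 13.7 and -2.05 with auxin. T positions per read were 20.3, 20.6, 22.5 and 21.8 with vehicle and 23.0, 22.9, 23.3 and 22.5 with auxin. The component and auxin can therefore not be told apart by this fit. In the mean of the auxin comparisons 15 passed (12.1%), all lower, in place of 25, and in the mean of the stress comparisons 24 (33%) in place of 13. Whether it produced the auxin changes was not tested.

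Few members passed for labelled reads with auxin. In unstressed parental cells 1 of 72 passed (background 0.546%), MRPL13, at 1.12 (edgeR adjusted p = 0.0436). In stressed parental, unstressed tagged and stressed tagged cells 0 passed in edgeR, with 6, 7 and 10 at an unadjusted p under 0.05 and 0 by DESeq2 (backgrounds 0.0111%, 0.234% and 0%). The labelled share gave 0 in all 4 auxin comparisons, with 10, 2, 5 and 3 at an unadjusted p under 0.05 and 0 by limma (backgrounds 0.212%, 0%, 0% and 0%). In the mean of the 4, labelled reads called 8 members (3 higher, 5 lower; background 4.24%), and the share called 3, all lower (background 0.757%), which were MRPL13 (-0.74, edgeR adjusted p = 0.00386), MRPL34 (-0.48, edgeR adjusted p = 0.00606) and MRPL16 (-0.64, edgeR adjusted p = 0.0368).

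Tagged and parental cells given vehicle differed in no member past the threshold. Of 76, 0 passed without stress (background 0.241%; 4 at an unadjusted p under 0.05) and 0 with it (0.411%; 3), and DESeq2 called 0 in both. Without the library that stood apart 1 passed unstressed, MRPL4, and 2 stressed, MRPL12 and MRPS25. The share of all genes called in those fits is not given, so these counts are no result about the members. The smallest p-values were those of MRPL47, at 94.1, 60.01, 78.4 and 89.4 CPM in parental and 57.5, 64.3, 60.5 and 68.7 CPM in tagged unstressed cells (-0.36, edgeR adjusted p = 0.36), and MRPL4, at 242, 255, 238 and 263 and 195, 191, 198 and 198 CPM (-0.35, edgeR adjusted p = 0.368). In stressed cells they were MRPS28, at 9.62, 20.4, 9.70 and 10.99 and 4.13, 4.12, 8.18 and 3.20 CPM (-1.38, edgeR adjusted p = 0.189), and MRPL39, at 1.15, 9.46, 3.40 and 1.74 and 1.03, 0.950, 0.909 and 1.23 CPM (-1.90, edgeR adjusted p = 0.397). For labelled reads 0 passed without stress (background 0.0111%) and with it (0.1%), with 3 members at an unadjusted p under 0.05 in each and 0 by DESeq2, and for the labelled share likewise (0.0111% each; 4 and 3 members; 0 by limma).

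Whether the effect of auxin or of stress differed between lines was tested as a difference of changes. The auxin effect in unstressed cells, tagged minus parental, had 0 members past the threshold (background 0.0179%; 7 at an unadjusted p under 0.05; 1 by DESeq2). MRPL4 led with a difference of 0.57 ± 0.17 (edgeR adjusted p = 0.45), and without the library that stood apart it passed, at 0.56 ± 0.12 (edgeR adjusted p = 0.00798). MRPL47 was next, at 0.52 (edgeR adjusted p = 0.562). In stressed cells the same difference had 0 (background 0%; 22 at an unadjusted p under 0.05), led by MRPL12 (-1.89, edgeR adjusted p = 0.166) and MRPL50 (1.01, edgeR adjusted p = 0.166). These were -0.64 (edgeR adjusted p = 0.125) and 0.90 (edgeR adjusted p = 0.171) without the library that stood apart. The stress effect, tagged minus parental, had 0 (0%; 5), led by MRPS28 (-1.99, edgeR adjusted p = 0.649) and MRPL13 (-1.87, edgeR adjusted p = 0.649). In tagged cells the stress effect with auxin minus that with vehicle had 0 (0%; 0), led by MRPS14 (-0.27, edgeR adjusted p = 1) and MRPL18 (-0.28, edgeR adjusted p = 1). DESeq2 called 0 in these last 3. Labelled reads and shares had 0 in all 4 differences (background 0% in each; 1 to 6 members at an unadjusted p under 0.05; 0 by DESeq2 for labelled reads and by limma for shares). Among labelled reads the smallest p-values belonged to MRPL33 (1.68, edgeR adjusted p = 0.203) and MRPL55 (-1.26, edgeR adjusted p = 0.296) for auxin in stressed cells, MRPL47 (1.01, edgeR adjusted p = 0.958) and MRPL58 (0.62, edgeR adjusted p = 0.958) for auxin in unstressed cells, MRPL33 (-1.45, edgeR adjusted p = 0.642) and MRPL13 (-1.12, edgeR adjusted p = 0.67) for stress, and MRPL19 (-0.91, edgeR adjusted p = 1) and MRPL52 (-0.78, edgeR adjusted p = 1) for stress with auxin minus vehicle. For the labelled share, MRPL19 (-1.12, edgeR adjusted p = 0.654) and MRPL54 (-1.08, edgeR adjusted p = 0.761) led for auxin in stressed cells, MRPL42 (0.84, edgeR adjusted p = 0.991) and MRPS33 (0.89, edgeR adjusted p = 0.991) in unstressed cells. MRPL19 (1.20, edgeR adjusted p = 0.711) and MRPS9 (1.13, edgeR adjusted p = 0.711) led for stress, and MRPL33 (1.08, edgeR adjusted p = 0.924) and MRPL19 (-0.87, edgeR adjusted p = 0.924) for stress with auxin minus vehicle.

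Other genes of mitochondrial translation were counted in the same way, over 50 tested of 51 listed. Under stress 3 were higher and 4 lower in vehicle-treated parental cells, 5 higher and 0 lower with auxin, 0 in tagged cells with vehicle, and 2 higher and 1 lower with auxin. With both directions together, these counts are near or under the shares of all genes given above for the same comparisons. The genes named next are therefore no result about this list. MTRFR, a release factor that rescues stalled mitochondrial ribosomes, was higher in 3 of the 4 comparisons, and MPV17L2, an assembly factor of the ribosome, in 2. TFAM, the transcription and packaging factor of mitochondrial DNA, was higher and the assembly factors DDX28, MALSU1, MRM2 and FASTKD2 lower in vehicle-treated parental cells. Auxin gave 3 higher (TSFM, METTL17 and TFAM) and 1 lower (MRRF) in unstressed parental cells and 0 elsewhere. The 4 of 50 in unstressed parental cells are near the share of all genes given above for that comparison. They stand beside 19 of 76 members there, a difference that was not tested. The median change under stress in vehicle-treated parental cells was -0.11 over these genes, -0.12 over the members, -0.14 over 77 subunits of oxidative phosphorylation and -0.08 over 84 cytosolic ribosomal proteins. With auxin the medians in the same order were -0.20, -0.19, -0.26 and -0.28 in unstressed parental cells and -0.06, -0.07, -0.13 and -0.32 in unstressed tagged cells. A fitted change above 0 was found for 27 of the 76 members and 18 of the 84 cytosolic ribosomal proteins in the former and for 29 and 10 in the latter.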

How the data were processed

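Whole-number counts were deposited by the authors in the layout of Slamdunk tables, per the file headers: reads per transcript region, reads with T-to-C conversions, covered T positions and conversions. The genome build was hg38, per the submitters' processing notes; the Slamdunk version and thresholds are not given in the sources used here. Transcripts were matched to RefSeq symbols (40006 of 40767 curated, 6326 of 33066 predicted and 0 of 21749 other identifiers); unmatched rows, 36.9% to 43.5% of a library's counts, were left out. The row with the most reads stood for a gene, and 72 genes with counts identical to another's were dropped.

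Total and labelled reads were tested over all 32 libraries with edgeR 4.0.16 in R 4.3.3 (TMM, filterByExpr, 1 coefficient per group, robust quasi-likelihood test, Benjamini-Hochberg adjustment over all genes, threshold 0.05), and the labelled share by pairing labelled with other reads of a library. This tested 11186 genes for total reads and 8980 for the others. Errors are standard errors of log2 changes. Groups came from the labels. Values by library are given for members past the threshold (at most 8 per comparison by p-value), the 2 with the smallest p where none passed, the extremes of reads and conversion rate, and members listed by role. Alternatives used DESeq2 1.42.0, limma 3.58.1, other scalings, filters and rows, a replicate block, and left out each library. Scripts were tested on simulated data. Members and lists were chosen with earlier results of these data known; the mean contrasts, the covariates on T content and the fits with those were added after the data had been seen. Equal replicate numbers are not tied to a shared plate or day by the labels, so the samples were not paired.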

Additional observations from a re-analysis of the deposited data

Results flagged for a closer look

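In groups of 4 libraries, 13 of 122 sets of values had 1 library far from its 3 mates by Dixon's 95% criterion, and chance flags about 1 in 20 groups. Of the 13, 5 were from the parental library with stress and auxin that stood apart (replicate 1). There the members' summed reads were 13523 CPM, MRPL12 had 869 CPM, MRPS10 742 CPM and MRPS18B 1313 CPM, each the highest of the group, and MRPL18 had 40.6 CPM, the lowest. In other groups MRPL18 was lowest in replicate 2 of the unstressed auxin-treated parental cells, at 131 CPM. In stressed vehicle-treated parental cells MRPS17 was highest in replicate 1, at 68.7 CPM, and MRPS28 in replicate 2, at 20.4 CPM. In unstressed vehicle-treated tagged cells replicate 4 was highest for MRPL51, at 501 CPM, and for MRPS30, at 115 CPM. In stressed tagged cells MRPS30 was highest in replicate 1 with vehicle, at 123 CPM, MRPL51 lowest in replicate 3 with auxin, at 352 CPM, and MRPS28 highest in the same library, at 25.9 CPM.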

How the results depend on the processing

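Counts of members past the threshold stayed within 1.5 times of their value in 787 alternatives and moved further in 168. The cause was not tested except where it is named. The share of all genes called can move with a setting as well, as given above for the library that stood apart. In this section the counts are printed without that share, so they are no result about the members apart from other genes. Leaving out 1 library gave, for total reads under stress, 3 to 40 in vehicle-treated parental cells, 1 to 21 with auxin, and 0 to 4 in tagged cells with either. For auxin it gave 1 to 47 in unstressed parental, 0 to 9 in stressed parental, 0 to 22 in unstressed tagged and 0 to 5 in stressed tagged cells, and in the means 10 to 24 for stress and 19 to 58 for auxin. Between lines it gave 0 to 1 unstressed and 0 to 2 stressed, and for the auxin difference 0 to 1 unstressed and 0 to 9 stressed. The highest of these came without the parental library with stress and auxin that stood apart (replicate 1), except 21 and both values of 9, which came without replicate 4 of that group. The lowest came without unstressed vehicle-treated parental replicate 2 (3), unstressed auxin-treated parental replicate 1 (1 in both cases), unstressed auxin-treated tagged replicate 2 (10) and unstressed vehicle-treated tagged replicate 4 (19). For labelled reads under stress the ranges were 2 to 13, 2 to 5, 0 to 6 and 0 to 5, for auxin 0 to 9 in unstressed parental and 0 to 1 in unstressed tagged cells, 2 to 16 in its mean, and 0 to 1 for its difference in stressed cells. For the share they were 2 to 6, 1 to 3, 1 to 4 and 1 to 2 under stress and 0 to 3 for auxin in unstressed parental cells.

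DESeq2 gave for total reads 17, 13 and 3 under stress in parental cells with vehicle, with auxin and in tagged cells with vehicle, 2, 5 and 1 for auxin in stressed parental, unstressed tagged and stressed tagged cells, and 1 for the auxin difference in unstressed cells. A fit on the compared libraries alone gave 22, 0, 5 and 7 under stress, 29, 26 and 17 for auxin in unstressed parental, unstressed tagged and stressed tagged cells, 3 between stressed lines and 1 for that difference. For labelled reads it gave 1, 6 and 5 under stress in the last 3 settings and 9, 4 and 1 for auxin, and for the share 7, 1 and 2 under stress and 1 for auxin in unstressed parental cells. T positions per read as a covariate gave 5 and 3 under stress in tagged cells, 4 and 1 for auxin in them, 1 between unstressed lines, 1 for the auxin difference and 31 in the stress mean. The within-group component as a covariate gave 5, 3, 1, 1 and 24 for the same, 6 and 0 for auxin in unstressed parental and tagged cells and 15 in the auxin mean. Labelled reads scaled by total reads gave 22, 17, 5 and 8 under stress, 46 in its mean and 0 for auxin in unstressed parental cells. The share not set against the typical gene gave 24, 12 and 8 under stress (tagged cells with auxin last), 47 in its mean and 6 in that of auxin, and limma gave 2, 5, 1 and 1 under stress and 0 in the auxin mean. Without a filter on low counts, labelled reads gave 2 under stress in tagged cells with auxin, 6 for auxin in unstressed parental cells and 1 for its difference in stressed cells, and the share 2 and 2 under stress in tagged cells with vehicle and for auxin in unstressed parental cells.

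With the replicate number as a block, 1 member passed for labelled reads under stress in auxin-treated tagged cells in place of 0, and no other count moved by over 1.5 times. Same-numbered libraries correlated by -0.488 to 0.542 and never all above 0.1 in a comparison. These values cannot show whether libraries of equal number were handled together, which the labels do not state. Of 4306 alternatives for single members, 3727 kept direction and side of the threshold, 519 lost the call, 57 gained it and 3 reversed: MRPL43 for total reads in the stress mean with the longest region (0.52), and MRPS18B (-0.071) and MRPS2 (-0.014) for the share in that mean when not set against the typical gene. MRPL44 passed in the stress mean in all 38 alternatives (-0.66 to -0.59), in 16 of 16 in parental cells with vehicle, 14 of 15 with auxin, 12 of 16 in tagged cells with auxin and 5 of 16 with vehicle.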
